A study of Homo sapiens with 6 samples.

Results

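The genes around MALAT1 and NEAT1 on chromosome 11 were described in NSCLC cell lines in which MALAT1 had been knocked down with an siRNA. All genes of the expression table that the deposited annotation placed, in whole or in part, in a fixed window of 600 kb of chromosome 11 around MALAT1 and NEAT1 were taken, which gave 37 of the 46427 genes of the table. They were chosen by position alone and run from CAPN1, which starts at position 65181373 of GRCh38, to OVOL1, which ends at position 65797219. The study asked which genes change when MALAT1 is reduced in NSCLC cells. It sequenced total RNA of H460, H1299, and A549, a control and a treated library per line.

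H460, H1299, and A549 are established human NSCLC cell lines, and both libraries of a line come from that line without any other engineered change named in the labels. The labels describe the controls as non-treated, while the methods mention both negative controls and an si-Control, without saying from which the control libraries were made. If the controls were not transfected, differences due to transfection and to loss of MALAT1 cannot be told apart in any comparison below. Ribosomal RNA had been removed and a stranded kit was used. The epithelial keratin genes KRT8 and KRT18 were measured at 123 to 2918 TPM (the deposited level corrected for transcript length), EPCAM at 0.252 to 8.04 TPM, and the blood and endothelial cell genes PTPRC and PECAM1 at 0.0221 TPM or less. CDKN2A was listed at 0 in the 4 libraries of H460 and A549 and at 47.2 and 49.3 TPM in H1299. The lines are named as the labels name them, each value is given by line, and the paired test was also run without each line. Between 42506818 and 68515992 reads were counted in a library.

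MALAT1 is an abundant long noncoding RNA that stays in the nucleus and gathers at nuclear speckles, where splicing factors are stored. TALAM1 is transcribed from the opposite strand of MALAT1. NEAT1, the neighbouring nuclear noncoding RNA, is made as a short polyadenylated transcript and as a long transcript that starts at the same position and runs on past the end of the short one. The long transcript is the scaffold of paraspeckles, nuclear bodies that hold proteins such as NONO and SFPQ.

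MALAT1 lies at chr11:65497738-65506516 on the plus strand, and its annotated transcripts have lengths between 8302 and 8779 bases. TALAM1, at chr11:65499312-65507432 on the minus strand, covers 7205 bases or 82.1% of the MALAT1 body. The binding sites of the study's MALAT1 RT-qPCR primers, shown because they mark where the knockdown was read by another method, frame 117 bases inside this overlap, so the amplified stretch belongs to the exonic sequence of both genes. The forward primer matched the plus strand at chr11:65501050-65501069 and the reverse primer the minus strand at chr11:65501147-65501166 of GRCh38.
MALAT1 forward primer: tgatagccaaattgagacaa
MALAT1 reverse primer: ttcagggtgaggaagtaaaa

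The small RNA MASCRNA is cut from the end of the MALAT1 precursor, and its 58 bases lie within the annotated MALAT1 body at chr11:65506117-65506174. It is shown in capitals after the 110 bases that precede it, which hold the A-rich tract at the mature end of MALAT1. MASCRNA was listed at a count of 1 and MIR612, inside NEAT1, at a count of 2 in each of the 6 libraries, both with TPM values near 0, so these entries carry no measurement of either small RNA.
MALAT1 end and MASCRNA: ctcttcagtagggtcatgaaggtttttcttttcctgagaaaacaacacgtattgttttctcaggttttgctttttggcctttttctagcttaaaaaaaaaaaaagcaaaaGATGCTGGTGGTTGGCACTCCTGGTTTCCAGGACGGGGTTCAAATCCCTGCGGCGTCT

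NEAT1 has 2 annotated transcripts without introns, of 3735 and 22743 bases, and the short one ends at position 65426532. The 200 bases around that end, chr11:65426383-65426582 on the plus strand, are shown because the results on NEAT1 turn on which side of it the reads fell. Capitals mark AATAAA, the canonical polyadenylation signal, and TGTA, the core of the element bound by the cleavage factor subunit NUDT21, both searched on the plus strand only. Measured to the last base of each match, the AATAAA stood 24 bases before the short end. On the same measure TGTA stood 136, 98, and 68 bases before that end and 8 bases after it. AATAAA occurred 8 times in the long transcript and 2 times in the short one, and TGTA 141 and 17 times, so a match by itself is a description and not a site.
NEAT1 short transcript end: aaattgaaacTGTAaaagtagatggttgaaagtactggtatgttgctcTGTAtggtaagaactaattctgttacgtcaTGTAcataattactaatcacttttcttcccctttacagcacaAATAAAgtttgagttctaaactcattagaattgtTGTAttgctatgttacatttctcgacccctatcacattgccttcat

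Of the 37 genes, 21 were protein coding, 8 were lncRNAs, and 8 were pseudogenes, small RNAs, or other entries. On the centromeric side of MALAT1 lay 14 genes, and on the telomeric side 20. At least 1 read was counted in any library for 36 genes, the exception being OVOL1-AS1, and in every library for 30. A mean of at least 50 reads over the 6 libraries was reached by 24 genes, 19 of them protein coding, and these are called expressed below. Of the other 13 genes, 8 averaged under 10 reads. Exonic bases were shared with a gene on the opposite strand by 14 of the 37, and whether the counting used the strand is not given in the sources used here, so reads of such partners cannot be told apart.

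**Figure D1:**
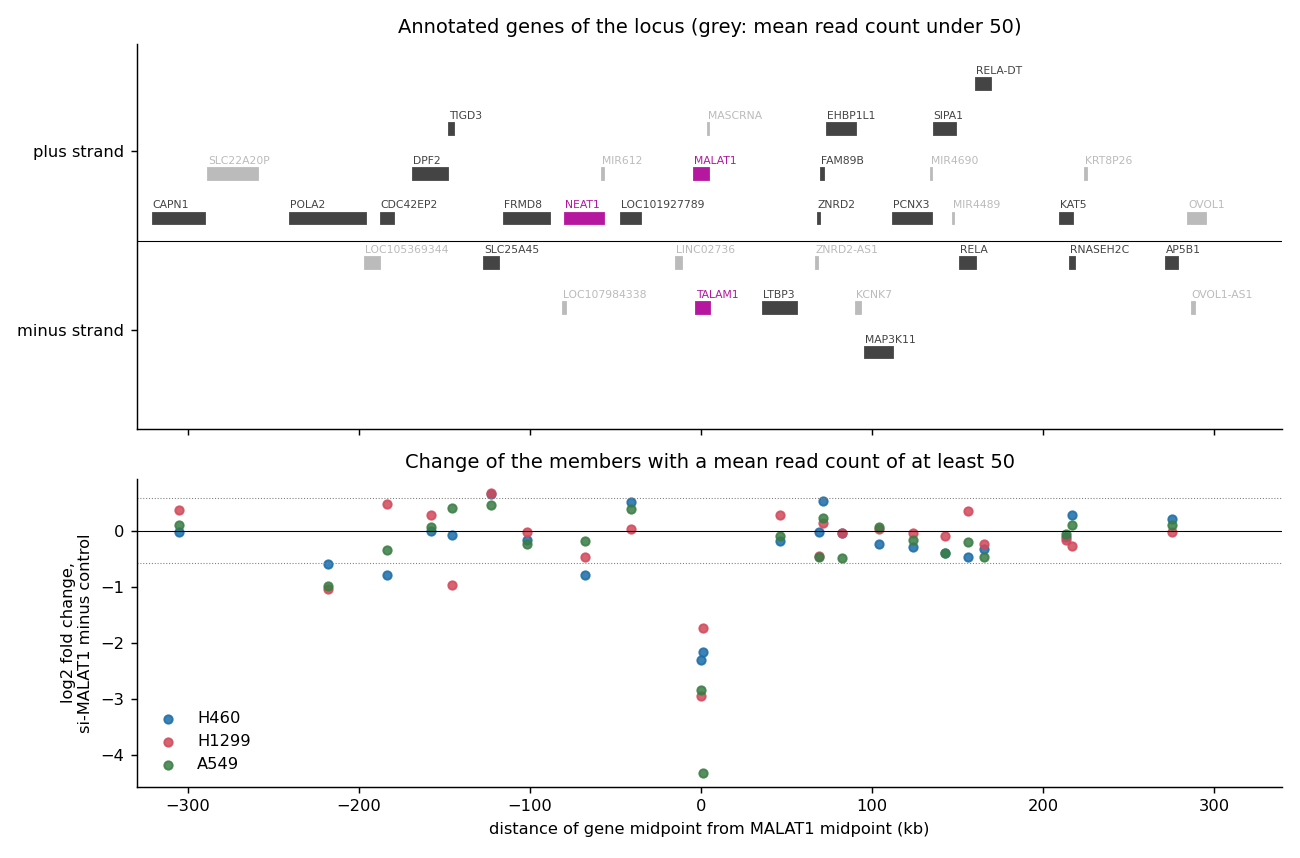
The upper panel shows 36 of the 37 genes by strand along the distance from the MALAT1 midpoint in kb, with genes under 0.8 kb drawn at a fixed minimum width and genes with a mean read count under 50 in grey. The lower panel shows the log2 fold change (si-MALAT1 minus control) of 23 expressed genes in H460, H1299, and A549 at the same distances, with dotted lines at 1.5-fold, and the points of MALAT1 and TALAM1 sit between -4.32 and -1.73 while no other point lies below -1.04.

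Knockdown was read first in the targeted gene. The scaled read count of MALAT1 (scaled with RLE size factors) was 213622 (control) and 42908 (si-MALAT1) for H460, 322927 and 41591 for H1299, and 123411 and 17202 for A549. Every control library was above every si-MALAT1 library, and the log2 fold changes were -2.32, -2.96, and -2.84. MALAT1 fell by 2.72 on the log2 scale (SE 0.16) by the quasi-likelihood test of edgeR, blocked by cell line (adjusted p = 0.0381). The edgeR adjusted p was 0.125 without H1299, 0.275 without A549, and 0.00705 without H460, so this call depended on H1299 and A549. The adjusted p was 0.171 without the filter on low counts and 0.0442 with RLE size factors. DESeq2's Wald test gave an adjusted p of 9.95e-55. In edgeR, MALAT1 was the 1 gene called among the 29 members tested, beside 0.00523% of the 19122 genes tested. Because each of the 3 lines has 1 library per treatment, these p-values rest on how the change varied between the lines. They cannot separate this from the spread between cultures of a line. In RNA from cultures, fewer cells expressing a gene and less RNA per cell cannot be told apart.

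MALAT1 was still well measured after knockdown. Its level was 452 TPM in the H460 control library, 805 TPM in H1299, and 305 TPM in A549, at ranks 175, 74, and 235 of all genes, and 82.5, 110, and 42.2 TPM after si-MALAT1, at ranks 745, 585, and 1781. The 37 genes together took 0.440% of all reads in the H460 control library and 0.137% after si-MALAT1, 0.805% and 0.239% for H1299, and 0.344% and 0.142% for A549. MALAT1 made up 64.2 to 76.7% of the reads of the locus in the controls and 22.1 to 49.0% after si-MALAT1. The 35 members other than MALAT1 and NEAT1 took 0.0364% and 0.0321% of all reads for H460, 0.0731% and 0.0738% for H1299, and 0.0566% and 0.0513% for A549, control first.

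TALAM1, the antisense RNA, was lower in each si-MALAT1 library, but not by the same amount as MALAT1. The scaled read count was 1802 and 403 for H460, 1360.5 and 409 for H1299, and 1378 and 67.9 for A549, control first. The 3 controls were above the 3 si-MALAT1 libraries. The log2 fold change was -2.16 in H460 (95% counting interval -2.32 to -2.01), -1.73 for H1299 (-1.89 to -1.59), and -4.32 for A549 (-4.75 to -3.96), intervals that cover counting error only. TALAM1 did not pass the edgeR test (log2 fold change -2.62, SE 0.48, adjusted p = 0.106), and with DESeq2's Wald test it did (adjusted p = 6.49e-07). Its reads equalled 0.844% of the MALAT1 reads in the H460 control library and 0.939% after si-MALAT1, 0.421% and 0.983% for H1299, and 1.12% and 0.395% for A549. The ratio was therefore higher after si-MALAT1 in H460 and H1299 and lower in A549, so TALAM1 was not a constant share of the MALAT1 reads, and the part of MALAT1 reads in its count was not tested.

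NEAT1, which ends 52.2 kb from MALAT1, had fewer reads but a higher level per length after si-MALAT1. The scaled read count of NEAT1 was 41953 and 24206 for H460, 62850 and 45624 for H1299, and 37196 and 32671 for A549, control first. It was lower after si-MALAT1 in each line, although the A549 values were close to each other and the groups overlapped. The log2 fold changes of the count were -0.79, -0.46, and -0.19 (mean -0.48 ± 0.30, SD, n = 3 lines), and edgeR gave an adjusted p of 0.207 (log2 fold change -0.50, SE 0.14), while DESeq2's Wald test gave an adjusted p of 0.0436.

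The deposited TPM of NEAT1 was 45.1 and 57.3 for H460, 66.5 and 93.4 for H1299, and 47.8 and 67.4 for A549. On the log2(TPM + 1) scale it was higher after si-MALAT1 by 0.34, 0.48, and 0.49 (mean 0.44 ± 0.09, SD, n = 3 lines), and FPKM gave a mean of 0.47. FPKM and TPM divide the reads of a gene by the estimated mean length of its transcripts. The ratio of count to FPKM times length was constant within each library over the 1533 to 1838 genes with 1 annotated transcript and at least 500 reads, with a spread from the 5th to the 95th percentile of 0.105 to 0.117% of the median, so the mean length behind each deposited value of NEAT1 could be solved.

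The implied mean length of the NEAT1 transcripts was 17251 bases in the H460 control library and 7135 bases after si-MALAT1. It was 20685 and 11184 bases for H1299, and 16915 and 10444 bases for A549. Each si-MALAT1 library was below each control library. With the 2 annotated lengths, this put the share of NEAT1 molecules that were long at 71.1% in the H460 control library and 17.9% after si-MALAT1, at 89.2% and 39.2% for H1299, and at 69.3% and 35.3% for A549. The differences were -53.2, -49.98, and -34.04 percentage points (mean -45.7 ± 10.3, SD, n = 3 lines).

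The 2 forms differed in opposite directions. The long transcript was at 32.1 and 10.2 TPM for H460, 59.3 and 36.6 TPM for H1299, and 33.1 and 23.8 TPM for A549, a log2 fold change of -1.65, -0.70, and -0.48 (mean -0.94 ± 0.62, SD, n = 3). The short transcript was at 13.04 and 47.0 TPM for H460, 7.197 and 56.8 TPM for H1299, and 14.6 and 43.6 TPM for A549, a log2 fold change of 1.85, 2.98, and 1.57 (mean 2.13 ± 0.74, SD, n = 3). The short transcript was above all controls in each si-MALAT1 library, whereas the long transcript of the H1299 si-MALAT1 library was above the H460 and A549 controls. The log2 ratio of long to short was lower by 3.08 ± 0.89 (SD, n = 3 lines; -3.50, -3.68, and -2.05), and the exact two-sided permutation test over the signs of the 3 pairs gave p = 0.25, the smallest p that 3 pairs allow. These shares are what StringTie's split of the reads between the annotated transcripts implies, and the coverage along the gene was not analysed here. The share of long molecules counts molecules, while most NEAT1 reads came from the long form, with 93.7, 98.0, and 93.2% of the reads in the controls and 57.0, 79.7, and 76.9% after si-MALAT1.

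**Figure D2:**
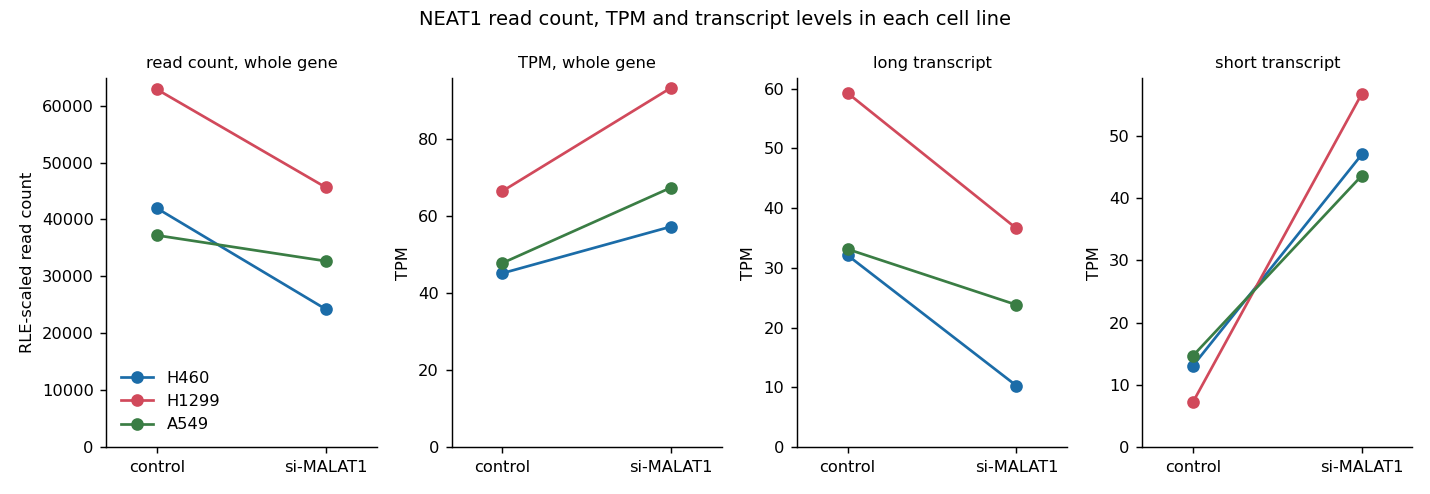
NEAT1 in the control and si-MALAT1 library of H460, H1299, and A549, each line joining the 2 libraries of a cell line, as RLE-scaled read count of the whole gene, TPM of the whole gene, and TPM of the long and the short transcript solved from count and FPKM. The read count and the long transcript are lower after si-MALAT1 in each line, while the TPM of the whole gene and the short transcript are higher, the latter from 7.197 to 14.6 TPM in the controls to 43.6 to 56.8 TPM.

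A shift of this size was uncommon in the table. Among 5580 genes whose annotated transcripts differ at least 1.5-fold in length and that averaged at least 50 reads, 0.0717% had an implied length at least 1.5-fold shorter in each of the 3 lines after si-MALAT1, and 0 were longer by as much. These were NEAT1, SRGAP3, DNM3, and TRPM3, the last 3 of which were named after their values were seen and rested on 28 to 371 reads in a library, against 24742 to 79320 for NEAT1. Of the 37 members, 10 were among the 5580 genes, and 1 of these, NEAT1, was past this limit. How far an implied length can shorten is bounded by the shortest annotated transcript, so not every gene could reach the limit. For LOC101927789, the H460 control length was 635 bases and the shortest transcript 551 bases. The NEAT1 transcripts have 3735 and 22743 bases, and the share of genes past the limit was not taken among genes whose transcripts differ as much. The mean log2 length ratio of NEAT1 was -0.95 ± 0.29 (SD, n = 3 lines). In RELA-DT, the lncRNA divergent from RELA, the ratio reached -0.49 in H460 and was 0.17 and 0.05 in the other lines, and in the other expressed members it stayed within -0.20 and 0.20 in every line. Members with 1 annotated transcript, such as AP5B1, have no room for such a shift. Over the 562 genes with a transcript of at least 10000 bases the median of the mean log2 length ratio was -0.0019. That was near the median of all 5580 genes (-0.0001). Of these 562 genes, 4 were past the limit, so every gene past it was among them.

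The proteins that share paraspeckles with NEAT1 differed little at the RNA level. A list of 16 genes from general knowledge was measured in full, including the core proteins NONO, SFPQ, and PSPC1 and the cleavage factor genes NUDT21, CPSF6, and CPSF7. At an unadjusted edgeR p under 0.05, 0 of the 16 passed, beside 7.59% of all tested genes lower and 7.38% higher. Of the 16, 0 reached 1.5-fold in any line. Among the 14464 genes with a mean of at least 50 reads, 65.4% likewise stayed within 1.5-fold in every line. The lowest mean on the list was 1017 reads (TAF15), and genes of like read count were not compared. The mean log2 fold change was 0.11 ± 0.14 for NONO, -0.13 ± 0.08 for SFPQ, and -0.18 ± 0.12 for PSPC1 (SD, n = 3 lines). NUDT21 had values of 0.20, -0.31, and -0.07, and CPSF6 of 0.22, 0.03, and 0.19. The median over the list was -0.03, beside 0.01 over all 14464 genes with a mean of at least 50 reads.

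LOC107984338, a minus-strand lncRNA that shares 583 bases with the NEAT1 start, was the 1 member at least 1.5-fold higher in all 3 lines, beside 1.19% of the 17834 genes with a read in every library. It had 16 and 27 reads for H460, 44 and 70 for H1299, and 21 and 56 for A549, a log2 fold change of 0.80, 0.78, and 1.24. It did not pass the edgeR test (adjusted p = 0.354), and the H460 counting interval reached below 0 (-0.11 to 1.83). Of its 1538 exonic bases, 583 are shared with NEAT1. Read positions were not analysed here, and the part of NEAT1 reads in its count was not tested.

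POLA2, which encodes the B subunit of the DNA polymerase alpha-primase complex that starts DNA synthesis, was the expressed coding gene of the locus with the most negative mean log2 fold change. It lies 191 kb from MALAT1. The scaled read count was 1516 and 1002 for H460, 2013 and 977 for H1299, and 1780 and 895 for A549, with the controls above all si-MALAT1 libraries. The log2 fold change was -0.60, -1.04, and -0.99, and in edgeR it was -0.89 (SE 0.13, adjusted p = 0.0818), which missed the threshold, while DESeq2's Wald test gave an adjusted p of 4.12e-05. It was called by edgeR when H460 was left out. POLA2, MALAT1, and TALAM1 were the 3 members at least 1.5-fold lower in all 3 lines, beside 1.28% of all genes. POLA2 shares 107 exonic bases with LOC105369344 on the opposite strand, which averaged 36.8 reads.

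SLC25A45, a member of the mitochondrial carrier family 114 kb from MALAT1, had higher values in each line. Its scaled read count was 162 and 254 for H460, 115 and 184 for H1299, and 275 and 379 for A549, and the groups overlapped. The log2 fold change was 0.65, 0.67, and 0.46, with an adjusted p = 0.266 in edgeR. It was the 1 member higher at an unadjusted edgeR p under 0.05, beside 7.38% of all tested genes. Of the 29 members tested, 5 were lower at that threshold, beside 7.59%, and these were MALAT1, TALAM1, POLA2, NEAT1, and SIPA1, a GTPase-activating protein of Rap. DESeq2 at an adjusted p under 0.05 called 4 members, all lower, beside 5.41% of genes in either direction, and these were the first 4 of the 5.

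Among the coding genes close to MALAT1 on the telomeric side, LTBP3 and ZNRD2 stayed within 1.5-fold in every line. LTBP3, which binds latent TGF-beta and ends 32.0 kb away, had scaled read counts of 1171 and 1036 for H460, 2465 and 2992 for H1299, and 1440 and 1343 for A549, with log2 fold changes of -0.18, 0.28, and -0.10. ZNRD2, a small zinc ribbon protein gene 63.9 kb away, had -0.03, -0.46, and -0.46. Neither passed the edgeR test (adjusted p = 0.974 and 0.395). For LTBP3 the sign differed between lines, while ZNRD2 was lower in each. The counting intervals of ZNRD2 lay below 0 in H1299 (-0.60 to -0.31) and A549 (-0.64 to -0.28) and included 0 in H460.

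On the centromeric side the nearest expressed coding genes were FRMD8, SLC25A45, and TIGD3. FRMD8, a partner of the iRhom proteins that carry the sheddase ADAM17, lies 84.2 kb away and had scaled read counts of 1175 and 1043 for H460, 2523 and 2486 for H1299, and 1719 and 1462 for A549, with log2 fold changes of -0.17, -0.02, and -0.23 (edgeR adjusted p = 0.569). TIGD3, derived from a transposase, had 66 and 59 reads for H460, 161 and 75 for H1299, and 66 and 97 for A549. Its log2 fold changes of -0.08, -0.96, and 0.41 went in different directions.

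Between these neighbours, noncoding genes were seen at very different depths. LINC02736, 6.83 kb from MALAT1 and the nearest separate gene, had 0 and 17 reads for H460, 32 and 18 for H1299, and 13 and 31 for A549, too few for a statement on its direction. LOC101927789, 30.7 kb from MALAT1 on the NEAT1 side, was well covered, with scaled read counts of 177 and 251 for H460, 751 and 772 for H1299, and 225 and 295 for A549. Its log2 fold changes of 0.51, 0.04, and 0.39 had a mean of 0.31 ± 0.24 (SD, n = 3; edgeR adjusted p = 0.515).

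Farther along the telomeric side, FAM89B, an adaptor protein gene 66.0 kb away, had log2 fold changes of 0.54, 0.13, and 0.22 (edgeR adjusted p = 0.454). RELA-DT, 156 kb away, had -0.33, -0.24, and -0.48 (edgeR adjusted p = 0.499). RELA itself, the p65 subunit of NF-kB, had -0.46, 0.36, and -0.20, so the gene and its divergent partner differed in sign in H1299. KAT5, the acetyltransferase TIP60, and RNASEH2C, a subunit of RNase H2, share 800 exonic bases on opposite strands, and their mean log2 fold changes were -0.11 ± 0.05 and 0.04 ± 0.28 (SD, n = 3).

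Among the other expressed coding genes, CAPN1, a calcium-activated protease gene, had log2 fold changes of -0.02, 0.38, and 0.11. DPF2, a subunit of BAF chromatin remodelling complexes, had -0.00, 0.27, and 0.06, and AP5B1, a subunit of the AP-5 adaptor complex, had 0.21, -0.02, and 0.10. MAP3K11, a kinase of the JNK pathway, had -0.24, 0.04, and 0.07, and its neighbour PCNX3 had -0.29, -0.04, and -0.16. EHBP1L1 had -0.03 and -0.03 in H460 and H1299 and -0.50 in A549, and SIPA1 had -0.39, -0.09, and -0.39. None of these 7 genes reached 1.5-fold in any line or an adjusted p under 0.05 in edgeR.

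**Figure D3:**
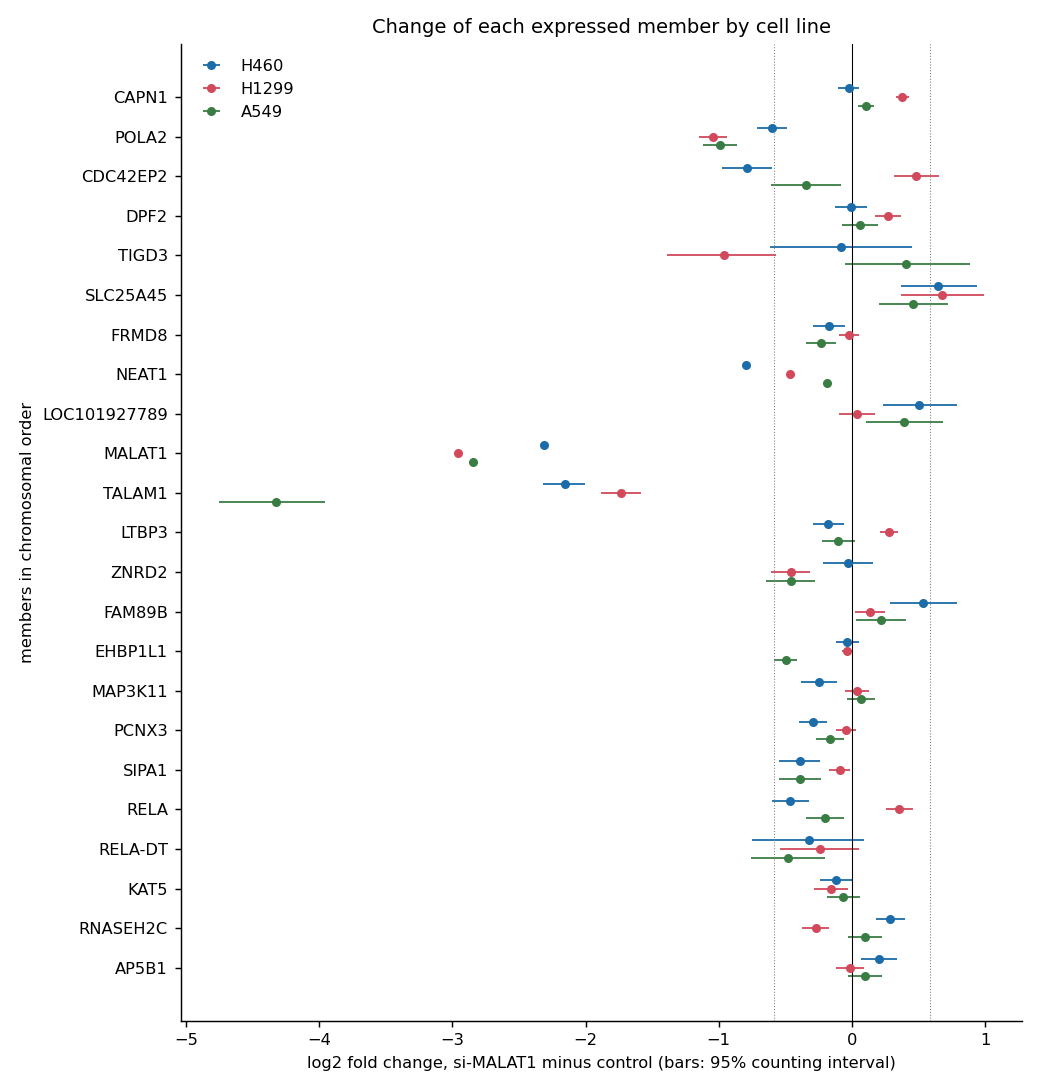
Log2 fold change (si-MALAT1 minus control) of 23 expressed genes in chromosomal order, with 1 point for each cell line, bars for the 95% counting interval, and dotted lines at 1.5-fold. MALAT1 and TALAM1 stand apart in each line and POLA2 is at -0.60 or lower in each, while 16 of the 23 genes stay within 1.5-fold in every line.

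The share of members past 1.5-fold was counted by line. Of the 30 members with a read in every library, 2 were higher in H460, beside 9.5% of genes, and 6 were lower, beside 10.3%. In H1299, 3 were higher, beside 11.7%, and 4 were lower, beside 11.4%. In A549, 2 were higher, beside 11.5%, and 3 were lower, beside 11.4%. MALAT1, TALAM1, and POLA2 were among the lower genes in every line, and the others in H460 were NEAT1, CDC42EP2, a Cdc42 effector, and LOC105369344. CDC42EP2 had log2 fold changes of -0.79, 0.48, and -0.34. Of the 24 expressed genes, 17 stayed within 1.5-fold in every line and 16 had a mean log2 fold change within -0.3 and 0.3, beside 9459 and 9980 of all 14464 genes with a mean of at least 50 reads. The sign was shared by the 3 lines in 14 of the 24, 3 higher and 11 lower, or 58.3%, beside 43.1% of all genes with a mean of at least 50 reads. Those were 3363 higher and 2875 lower of 14464. Without MALAT1 and TALAM1 it was shared in 12 of 22, or 54.5%, 3 higher and 9 lower. In the 600 kb windows on the centromeric and telomeric sides it was shared in 7 of 20 (4 higher, 3 lower) and 7 of 21 (2 higher, 5 lower).

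No order by distance from MALAT1 was seen. Distance was taken between the nearest ends of the gene bodies, and MALAT1 and TALAM1 were left out. The median of the mean log2 fold change was 0.00 for the 13 members within 100 kb that had a read in every library, -0.19 for the 10 members from 100 to 200 kb, and 0.10 for the 5 members from 200 to 300 kb. Across these 28 genes, which share the same 6 libraries, the Spearman coefficient of the absolute change with distance was 0.14. Over the 22 expressed genes it was -0.10, and -0.07 for H460, 0.17 for H1299, and -0.11 for A549. The 9 expressed genes on the centromeric side had a median of -0.14 and the 13 on the telomeric side a median of -0.10.

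The windows on either side of the locus, each 600 kb wide, gave medians of the same order. The 20 expressed genes of the centromeric window had a median of -0.02 and the 21 of the telomeric window a median of -0.18, beside -0.11 for the 22 expressed members without MALAT1 and TALAM1 and 0.01 for all genes.

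The median control TPM was 8.81 for the 15 genes within 100 kb other than MALAT1 and TALAM1, 3.44 for the 12 genes from 100 to 200 kb, and 1.66 for the 8 genes from 200 to 300 kb. With distances between gene starts the medians were 7.60, 4.72, and 3.22 TPM. Of these genes, 9, 9, and 4 were expressed, and among the expressed genes the medians were 12.98, 6.22, and 10.2 TPM. The farthest bin was then above the middle one, and both stayed below the nearest bin. The order of the outer bins over all genes therefore rested on genes with few reads. NEAT1 was the highest of the nearest bin at a mean control level of 53.1 TPM. CAPN1, the calpain protease gene 286 kb away, was at 30.1 TPM, and TIGD3 at 0.9499 TPM was the lowest of the expressed genes.

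**Figure D4:**
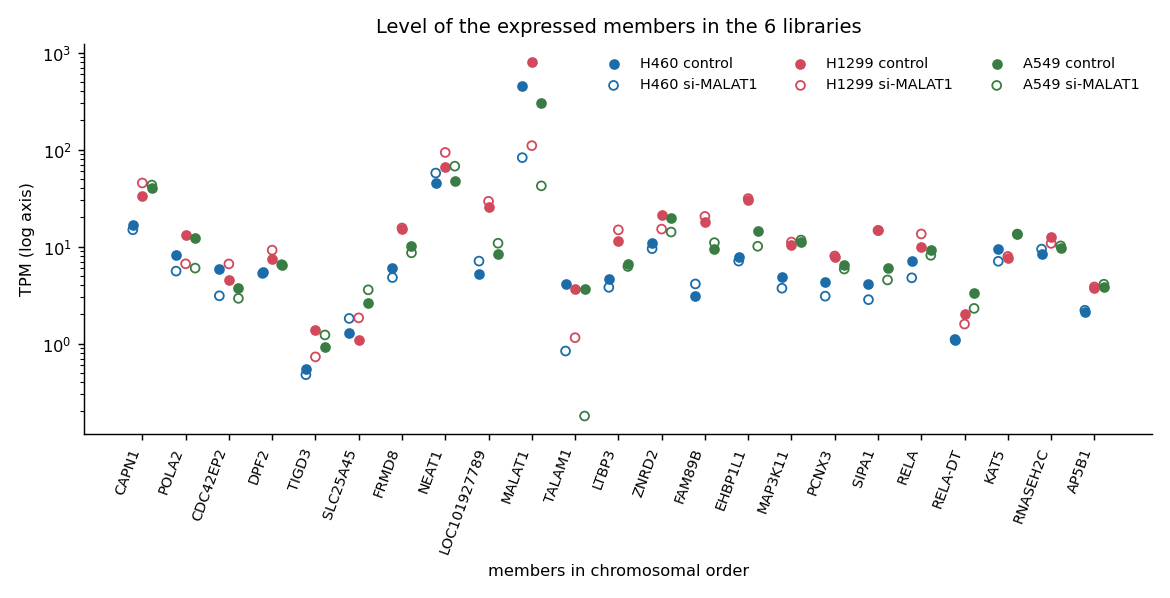
Deposited TPM (log axis) of 23 expressed genes in chromosomal order, filled for control and open for si-MALAT1 libraries, by cell line. MALAT1 is the highest gene in each control library (305 to 805 TPM) with NEAT1 next, and NEAT1 is above MALAT1 in the A549 si-MALAT1 library (67.4 and 42.2 TPM).

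Many members differed in level between the cell lines. In edgeR's F test over the 3 lines with treatment as a term, 15 of 29 members had an adjusted p under 0.05, beside 62.9% of the genes tested. Of these 15, 9 were highest in H1299, 6 in A549, and 0 in H460, and 12 were lowest in H460. Over all 13687 genes called, 32.0% were highest and 35.0% lowest in H460. In the windows of equal length on the centromeric and telomeric sides, 0 of 15 and 0 of 18 called genes were highest in H460, so this split was not particular to the locus. FAM89B was 4.17-fold higher in H1299 than in H460 (edgeR adjusted p = 0.000765), with scaled read counts of 1014 and 1113 in H1299, 544 and 633.5 in A549, and 211 and 306 in H460. LOC101927789 was 3.60-fold, SIPA1 3.41-fold, and EHBP1L1, an adaptor of endosomal traffic, 3.21-fold higher in H1299 than in H460 (edgeR adjusted p = 0.00131, 0.000426, and 0.000804). RELA-DT was highest in A549, 2.88-fold above H460 (edgeR adjusted p = 0.0102). In these 5 genes the 2 libraries of the highest line did not overlap those of the lowest.

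MALAT1 and NEAT1 were among the 15, with mean levels highest in H1299 (edgeR adjusted p = 0.00353 and 0.0225), and TALAM1 was not (edgeR adjusted p = 0.230). For MALAT1 the libraries of H1299 and A549, the highest and lowest lines, overlapped. After si-MALAT1 its scaled read count was 42908 in H460 and 41591 in H1299. POLA2 differed little between lines (1.14-fold, edgeR adjusted p = 0.602), and its libraries were ordered by treatment instead. With 2 libraries a line, of different treatment, each line's spread includes that of the treatment.

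**Figure D5:**
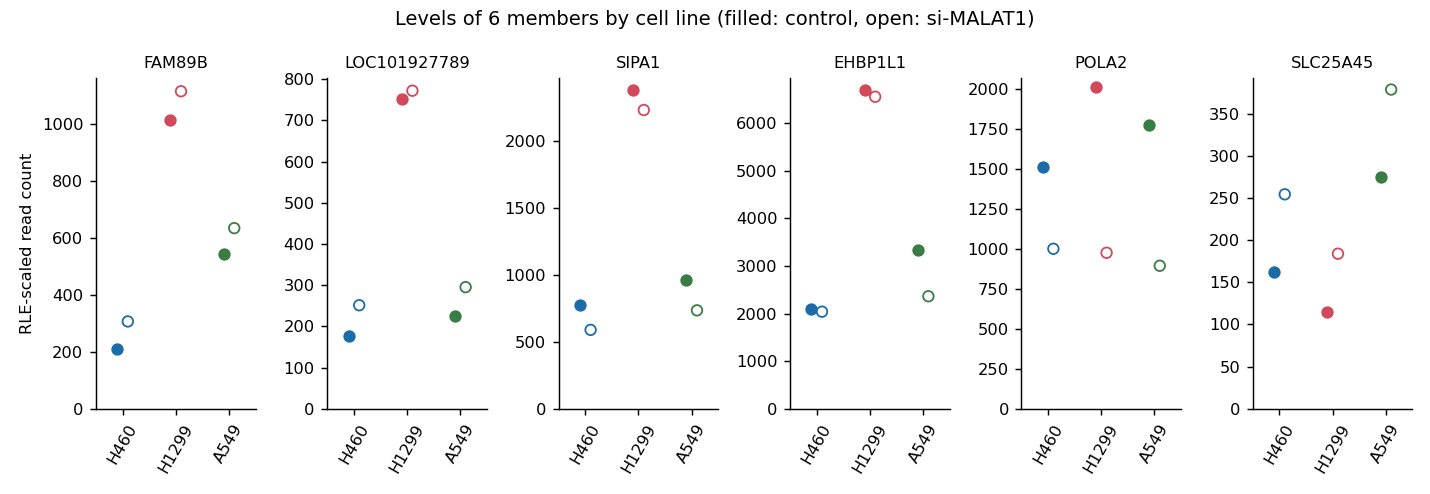
RLE-scaled read counts of FAM89B, LOC101927789, SIPA1, EHBP1L1, POLA2, and SLC25A45 in the 6 libraries, filled for control and open for si-MALAT1, each panel on its own axis from 0. The first 4 genes are highest in H1299 under both treatments, while POLA2 is between 1516 and 2013 in the controls and between 895 and 1002 after si-MALAT1.

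The scarce members gave few reads. SLC22A20P, a transporter pseudogene, had 2 to 35 reads in a library, with 5 and 22 in A549. KCNK7, a potassium channel gene, had 4 reads or fewer in each library. OVOL1, an epithelial transcription factor, had 6 reads in the A549 control library and 0 in the others, and its antisense gene OVOL1-AS1 had 0 in all 6. ZNRD2-AS1, which averaged 32.7 reads, had log2 fold changes of -0.49, -0.22, and -0.38, with a counting interval that included 0 in each line. The A549 intervals lay above 0 for SLC22A20P (0.56 to 3.75) and below 0 for OVOL1, on so few reads that no statement on their direction is made.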

How the data were processed

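RNA-seq of 6 libraries was used, 1 control and 1 treated library from each of H460, H1299, and A549, grouped by the sample labels. The authors trimmed the reads, aligned them with HISAT2 2.1.0, and estimated abundances with StringTie on an NCBI annotation, per the methods and the submitters' processing notes, which give StringTie 1.3.4b and differ from the methods in its version. The deposited read counts are whole numbers, not normalized, and the authors' FPKM and TPM values adjust for depth and transcript length. The deposited annotation gave gene coordinates on GRCh38. Another 18 columns belong to other samples and were not used.

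Log2 fold changes within a line were differences (si-MALAT1 minus control) in log2 of RLE-scaled counts, with 1 added, and had exact 95% Clopper-Pearson intervals on the split of reads (counting error only). The paired test used edgeR 4.0.16 (quasi-likelihood, TMM, filterByExpr) and blocked by cell line, since both libraries of a line share it, with Benjamini-Hochberg adjustment over all genes tested and a threshold of 0.05. DESeq2 1.42.0 was an alternative. In simulated counts the paired test recovered 99.5% of the 200 genes changed 4-fold out of 19122, with 5.24% false calls. The simulated counts had a fixed spread for all genes and the same fold in every line. That differs from these data, where the test called 1 of 19122 genes. The simulation therefore checks the code and does not give the power of the test here. The implied length of a gene is its count divided by FPKM and by the library's median ratio over genes with 1 transcript. NEAT1 shares follow from its 2 transcript lengths.

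The members and lists were chosen with earlier results of these data known. Values in every library or full tests were given for MALAT1, TALAM1, NEAT1, the 3 nearest expressed coding genes on each side, called members, members past 1.5-fold in all 3 lines, the 5 largest changes in each direction shared by the lines, the 5 largest ranges between lines, and members with opposite changes. A member and a gene of the cell line check are not reported here. Primer sequences were matched to hg38. The siRNA sequence is not given in the sources used here. Versions were Python 3.11.15, R 4.3.3, pandas 2.3.3, numpy 2.4.6, scipy 1.17.1, and matplotlib 3.10.9.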

Additional observations from a re-analysis of the deposited data

Results flagged for a closer look

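LOC105369344, a minus-strand lncRNA that overlaps the POLA2 end, stood out because its 95% counting intervals lay on opposite sides of 0 in 2 cell lines. The log2 fold change was -0.74 in H460 (66 and 37 reads, control first) and 1.65 in H1299 (27 and 80 reads), and 0.10 in A549 (5 and 6 reads). The difference between the lines was not tested, since there was 1 library per line and condition. POLA2, on the other strand, was lower in each of these lines.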

How the results depend on the processing

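Of 123 alternative values, 82 stayed on the same side of the threshold or moved by less than the spread between replicates, which here are the 3 cell lines. Among values with no test, the median change within 100 kb went from 0.0009 to -0.046 over expressed genes. The test had 2 residual degrees of freedom, and its calls moved most. Members lower at an adjusted p under 0.05 numbered 1 with the cell line as replicate block, 0 without the replicate block, 0 without the low-count filter, 4 with DESeq2, and 0 to 2 when 1 line was left out. At an unadjusted edgeR p under 0.05, the fit without the replicate block gave 3 lower members in place of 5 and 0 higher in place of 1, and leaving out any 1 line gave 0 higher. MALAT1 kept its size in each alternative, while its call was kept in some and lost in others. It was called with DESeq2 (-2.71, adjusted p = 9.95e-55) and by edgeR with RLE size factors (-2.71, adjusted p = 0.0442). It was -2.71 without the replicate block (edgeR adjusted p = 1) and -2.73 without the filter (0.171). With 1 line left out it was -2.91 to -2.58. The edgeR adjusted p was then 0.00705 with H460 left out, 0.125 with H1299 left out, and 0.275 with A549 left out. The further member called without H460 was POLA2. DESeq2 called TALAM1 (-2.69, adjusted p = 6.49e-07) and NEAT1 (-0.48, adjusted p = 0.0436).

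Members past 1.5-fold changed as follows. With a pseudocount of 10, 1 member was higher in H460 in place of 2, and 0 in all 3 lines in place of 1. On log2(TPM + 1), 0 were higher in H460, H1299, A549, or all 3 lines, and 3 were lower in H460 in place of 6. Among genes with a mean of at least 50 reads, 1 was higher in H460, 1 in H1299, 0 in A549, and 0 in all 3. With every gene that had a read in any library, 5 were higher and 7 lower in H1299, and 5 higher and 5 lower in A549. The Spearman coefficient with distance was -0.098 over expressed genes and -0.0569 on log2(TPM + 1), in place of 0.138. The control medians of the outer bins were 4.72 and 3.22 TPM with gene starts, and the farthest was 1.23 in FPKM, another unit. Over expressed genes the 3 control medians were 12.98, 6.22, and 10.2 TPM (an alternative added after seeing the data). NEAT1 reversed from -0.48 by count to 0.44 by TPM and 0.47 by FPKM (alternatives added after seeing the data), which the implied length accounts for arithmetically. The cause of the other differences was not tested.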
